A study of Mus musculus with 38 samples.

Results

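The interleukin-1 (IL-1) family was followed through 8 of its genes in mouse intestinal epithelial preparations during experimental colitis. Il1a, Il1b, Il18 and Il33 encode cytokines, Il1rn encodes the IL-1 receptor antagonist, Il1r1 and Il1rl1 encode signalling receptors, and Il1r2 encodes a decoy receptor. The 8 genes were chosen by their symbols and make up 8 of the 46078 genes counted, and a row was found for each of them. The data are RNA-seq counts from 38 libraries of mice on a C57BL/6 background. The labels give each library a number of its own but do not state that each came from a separate mouse, so p-values measure the spread between these libraries. According to the sample labels the RNA came from isolated intestinal epithelial cells, although the series' own description speaks of colon tissue. The Hk2∆IEC mice (KO) carry a floxed Hk2 allele and Cre recombinase under the Villin promoter, which is active in intestinal epithelium, so other cells in a preparation keep the gene. Controls were co-housed Hk2 fl/fl littermates (WT), which carry the floxed allele as well. Both genotypes were sampled untreated (day 0, 4 WT and 5 KO) and after 3 days (7 WT and 8 KO) or 7 days (7 WT and 7 KO) of 1.5% dextran sodium sulfate (DSS) in the drinking water, an agent that injures the colonic epithelium. DSS-treated mice were males of 10 to 12 weeks, and the labels do not say how old the day 0 mice were.

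IL-1α and IL-1β bind the receptor encoded by Il1r1 and recruit an accessory protein, Il1rap, to switch on NF-κB. The antagonist IL-1RN occupies the same receptor without signalling, and the decoy receptor IL-1R2 captures IL-1 without transmitting a signal. IL-33 signals through ST2, the product of Il1rl1, on mast cells, lymphoid cells and other leukocytes, and IL-18 is made as a precursor by intestinal epithelium and cut by caspase-1. IL-1β is made mainly by myeloid cells such as monocytes, macrophages and neutrophils, IL-1R2 is abundant on neutrophils, and IL-33 is stored in the nuclei of epithelial, endothelial and fibroblastic cells.

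Libraries held 10.5 M to 60.6 M counts (median 43.2 M), and day 0 libraries were shallower, with medians of 18 M in WT and 14.4 M in KO. A count of 3 in 1 library corresponded to 0.0495 to 0.286 CPM (counts scaled by the library's total), the detection floor used here. The names of all day 0 libraries carry the letter G and those of days 3 and 7 the letter I, so that in comparisons with day 0 the effect of DSS and that of the library series cannot be told apart. 1 library of each genotype on day 0 had more Xist than Ddx3y, which was seen in 0 libraries of days 3 and 7. The targeted gene, Hk2, was counted over all its exons, so reads from outside the deleted part are included. It stood at 254, 290, 395 and 449 CPM in the WT libraries of day 0 and at 33.1, 60.7, 80.8, 89.7 and 118 CPM in the KO libraries. On day 7 it ranged from 228 to 611 CPM (median 305) in WT and from 56.1 to 268 CPM (median 126) in KO. On day 3 it ranged from 97.0 to 220 CPM in WT and from 68.4 to 128 CPM in 7 of the 8 KO libraries, while the library labelled d3_KO_345 held 435 CPM, above every WT library of that day. The KO minus WT log2 difference of Hk2 was -2.20 on day 0 (edgeR adjusted p = 0.0331), -0.27 on day 3 (adjusted p = 0.802), or -0.74 without d3_KO_345 (adjusted p = 0.77), and -1.25 on day 7 (adjusted p = 0.291). In its Hk2 level the library d3_KO_345 was unlike the other KO libraries of its day, and the reason was not tested. It also stands apart in 5 of the 8 genes, so main values of KO mice on day 3 are given with and without it. All 9 epithelial marker genes examined (Epcam, Cdh1, Krt8, Krt18, Krt19, Krt20, Vil1, Cdx1 and Cdx2) were detected in each group, with summed levels of 10564 to 18759 CPM on days 3 and 7.

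Between day 3 and day 7 of DSS the family separated into members that rose and members that did not. In WT mice 5 of the 8 genes rose and 0 fell (edgeR quasi-likelihood test, adjusted p under the 0.05 used as the threshold throughout), against 10.6% of all 15541 genes tested that were called higher and 19.3% called in either direction. In KO mice the same 5 genes rose, where 10.5% of 15568 genes were called higher and 19.3% in either direction. Il1a, Il1b, Il1r2, Il1rl1 and Il33 are the genes that rose, and Il1rn, Il18 and Il1r1 are those that did not pass the test. The median log2 fold change of the 8 genes was 3.19 in WT and 2.16 in KO, beside 0.01 and -0.01 over all genes tested. In bulk RNA such as this, more cells of a type and more RNA per cell cannot be told apart.

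**Figure D1:**
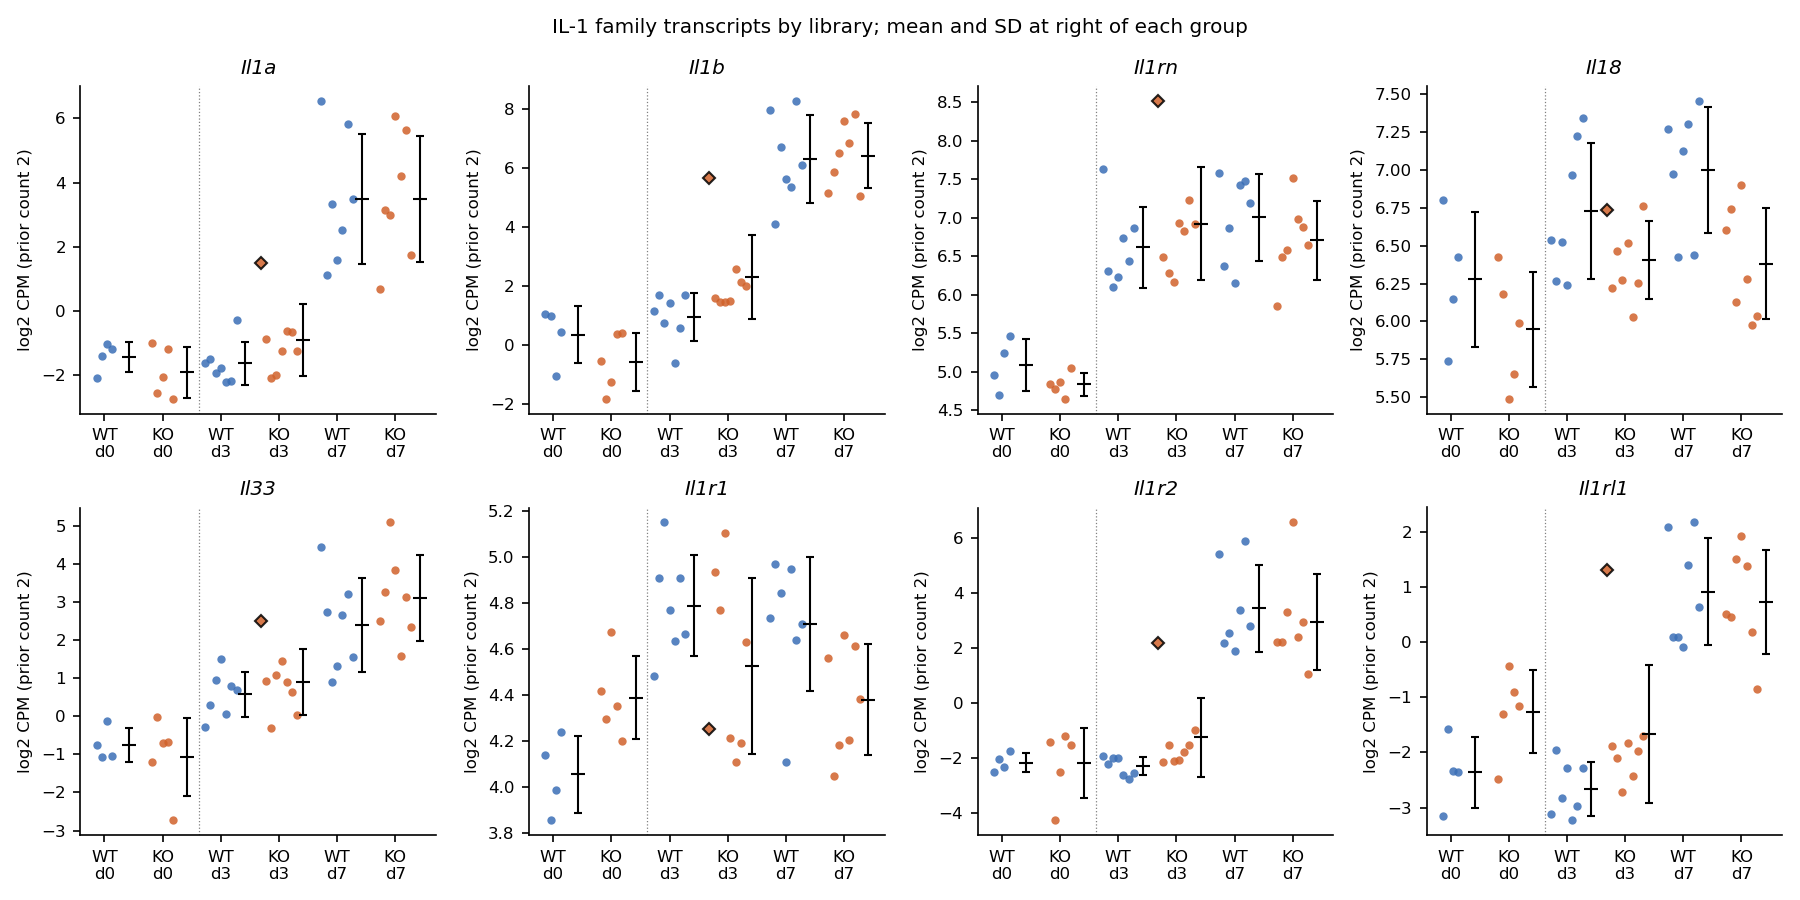
Level of each of the 8 genes in every library, as log2 CPM with a prior count of 2, by genotype (WT blue, KO orange) and day. Horizontal marks and bars give the mean and SD of each group, the dotted line separates the day 0 library series, and the outlined diamond is the library labelled d3_KO_345. The 7 WT libraries of day 7 lie above all 7 WT libraries of day 3 for Il1a, Il1b, Il1r2 and Il1rl1.

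Il1b, the main secreted agonist, was low before day 7. It was found at 0.435, 1.31, 1.94 and 2.06 CPM in WT mice and at 0.235, 0.374, 0.637, 1.25 and 1.29 CPM in KO mice on day 0. On day 3 it ranged from 0.603 to 3.22 CPM (median 2.18) in WT and from 2.72 to 50.7 CPM (median 3.50) in KO. The upper KO value is that of the library labelled d3_KO_345, and the other 7 ended at 6.04 CPM. On day 7 the range was 17.3 to 312 CPM (median 68.6) in WT and 33.8 to 229 CPM (median 92.1) in KO. Every WT library of day 7 exceeded every WT library of day 3, and in KO the groups overlapped only through the library labelled d3_KO_345. On the log2 scale Il1b rose by 5.76 ± 0.64 (SE) in WT (edgeR adjusted p = 6.07e-05) and 3.47 ± 0.73 in KO (adjusted p = 0.00293). Without d3_KO_345 the KO value was 4.85 (adjusted p = 9.37e-06). Ordered by their mean log2 CPM, the 6 groups made 1 step larger than the SD of either neighbour, that of 4.0 from KO day 3 to WT day 7.

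Il1a encodes IL-1α, which is held in the cell and released when cells are damaged, and its mean level per length was lower than that of Il1b in each group. On day 0 it stood at 0.182, 0.330, 0.390 and 0.435 CPM in WT and at 0.0992, 0.117, 0.187, 0.384 and 0.446 CPM in KO, from 1 to 19 counts. On day 3 WT libraries held 0.164 to 0.774 CPM (median 0.243) and KO libraries 0.183 to 2.74 CPM (median 0.431), with the library labelled d3_KO_345 again highest and the next at 0.604 CPM. On day 7 the values spread over 2.13 to 93.1 CPM (median 9.95) in WT and 1.57 to 67.9 CPM (median 8.84) in KO. All WT libraries of day 7 lay above those of day 3, as did all KO libraries once d3_KO_345 was set aside. The rise was 6.29 ± 0.92 in WT (adjusted p = 0.000294) and 4.95 ± 0.83 in KO (adjusted p = 0.000532), or 5.78 in KO without d3_KO_345 (adjusted p = 0.00015). The only step between neighbouring groups larger than their SD was the 4.39 from KO day 3 to WT day 7.

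Il1a and Il1b lie beside each other on the minus strand of chromosome 2, at chr2:129299610-129309972 and chr2:129364570-129371139 (GRCm38, coordinates of the count files). Counting ignored strand, and 222 of the 1974 exon bases of Il1a (11.25%) are shared with Gm14023 and 25 of the 1907 of Il1b (1.31%) with Il1bos, both on the plus strand, so reads there cannot be assigned to one gene. The 250 bases before each annotated start are shown because the pair moved together, 5′ to 3′ on the minus strand, from RefSeq (GRCm38.p6), at chr2:129309973-129310222 for Il1a and chr2:129371140-129371389 for Il1b. Capitals mark matches to TATAAA, the core of a promoter element that positions transcription starts, searched on both strands.
Il1a: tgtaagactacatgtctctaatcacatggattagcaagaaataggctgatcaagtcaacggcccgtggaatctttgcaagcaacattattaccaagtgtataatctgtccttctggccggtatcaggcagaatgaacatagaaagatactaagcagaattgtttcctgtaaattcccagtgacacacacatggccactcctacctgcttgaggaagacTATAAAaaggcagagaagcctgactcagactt
Il1b: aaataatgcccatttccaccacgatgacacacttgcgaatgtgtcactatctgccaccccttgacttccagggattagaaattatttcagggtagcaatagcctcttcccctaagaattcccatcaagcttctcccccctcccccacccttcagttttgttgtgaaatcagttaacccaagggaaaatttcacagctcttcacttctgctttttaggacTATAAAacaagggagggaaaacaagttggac
The match begins 32 bases before the start of Il1a and 31 bases before that of Il1b. TATAAA occurs in 12.4% of the 32851 windows of this length in the RefSeq table. The same windows were searched for an NF-κB consensus, present in 3.90% of windows, and for TTGCNNAA, a C/EBP half-site form, present in 9.56%, and the windows of Il1a and Il1b held a match to neither. Windows were found for all 8 genes, 13 in total. TATAAA was also found in both windows of Il33 and in that of Il18, TTGCNNAA in 1 window each of Il33, Il1r1 and Il1rl1, and the NF-κB consensus in 1 window of Il1r1. A match describes these letters and is not a measured binding site.

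Il33 encodes an alarmin kept in the nucleus. On day 0 it was found at 0.425, 0.431, 0.545 and 0.870 CPM in WT and at 0.0992, 0.382, 0.561, 0.577 and 0.939 CPM in KO. WT libraries held 0.775 to 2.78 CPM (median 1.57) on day 3 and 1.80 to 21.7 CPM (median 6.31) on day 7, and 5 of the 7 day 7 libraries exceeded every day 3 library. KO libraries held 0.753 to 5.65 CPM (median 1.82) on day 3 and 2.98 to 34.1 CPM (median 8.80) on day 7. The upper day 3 value is that of the library labelled d3_KO_345, and the other 7 ended at 2.68 CPM. The log2 rise was 2.19 ± 0.49 in WT (edgeR adjusted p = 0.00569) and 2.37 ± 0.50 in KO (adjusted p = 0.00311). Without d3_KO_345 the KO rise was 2.74 (edgeR adjusted p = 0.000765). The highest value, 34.1 CPM in d7_KO_368, came from the library with the highest summed fibroblast markers, 313 CPM, where the other KO libraries of that day held 43 to 274 CPM. The same library held the highest summed monocyte and macrophage markers, 576 CPM, where the other KO libraries of that day held 99.2 to 406 CPM. The part of stromal cells or macrophages in the Il33 level was not tested.

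Il18 encodes a cytokine that colonic epithelium makes without stimulation, and it was the most abundant of the 8 genes per length in every group. Day 0 WT libraries held 53.3, 70.8, 86.0 and 111 CPM, and day 0 KO libraries 44.9, 50.4, 63.5, 72.4 and 85.8 CPM. WT mice had 75.6 to 162 CPM (median 93.0) on day 3 and 85.9 to 176 CPM (median 140) on day 7. KO mice had 65.2 to 108 CPM (median 82.8) on day 3 and 63.0 to 120 CPM (median 77.8) on day 7. The day 7 and day 3 libraries overlapped in both genotypes, with a log2 difference of 0.24 ± 0.21 in WT (adjusted p = 0.48) and -0.05 ± 0.15 in KO (adjusted p = 0.881). Without d3_KO_345 the KO difference was -0.00089 (edgeR adjusted p = 0.997). No step between neighbouring groups exceeded the SD of Il18.

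Il1rn, the antagonist, was already high on day 3. It stood at 25.9, 31.1, 37.8 and 44.0 CPM in day 0 WT libraries and at 25.1, 27.3, 28.6, 29.1 and 33.1 CPM in day 0 KO libraries. On day 3 it ranged from 68.5 to 199 CPM (median 86.4) in WT and from 71.7 to 151 CPM in 7 KO libraries, with 366.6 CPM in the library labelled d3_KO_345. On day 7 the ranges were 70.9 to 191 CPM (median 146) in WT and 57.8 to 184 CPM (median 99.8) in KO, and they overlapped those of day 3 widely. The day 7 minus day 3 difference was 0.37 ± 0.26 in WT (adjusted p = 0.358) and -0.37 ± 0.32 in KO (adjusted p = 0.478), or 0.00 in KO without d3_KO_345 (adjusted p = 0.997). The 1 step beyond the SD lay between day 0 and day 3 in WT, 1.53 on the log2 scale.

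Il1r1, the signalling receptor, ranged from 14.4 to 35.5 CPM over all libraries. Its day 0 values were 14.4, 15.8, 17.6 and 18.8 CPM in WT and 18.3, 19.6, 20.4, 21.3 and 25.5 CPM in KO. WT libraries ranged from 22.3 to 35.5 CPM (median 27.2) on day 3 and from 17.2 to 31.3 CPM (median 26.5) on day 7. KO libraries ranged from 17.2 to 34.3 CPM (median 21.9) on day 3 and from 16.5 to 25.3 CPM (median 20.8) on day 7. The differences between the days were -0.09 ± 0.13 in WT (adjusted p = 0.666) and -0.22 ± 0.16 in KO (adjusted p = 0.395). Without d3_KO_345 the KO difference was -0.26 (edgeR adjusted p = 0.279). All WT libraries of day 3 lay above those of day 0, which belong to the other library series. The only step between neighbouring groups beyond the SD was 0.32 on the log2 scale, from WT day 0 to KO day 7.

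Il1r2, the decoy receptor, had the largest fold change of the 8 genes in WT. It was close to the detection limit before day 7: day 0 libraries held 2, 2, 4 and 12 counts in WT (0.121 to 0.246 CPM) and 0, 2, 3, 4 and 5 counts in KO (up to 0.384 CPM). On day 3 WT libraries held 0.0953 to 0.209 CPM, from 2 to 11 counts. KO libraries of day 3 held 0.171 to 0.457 CPM apart from the library labelled d3_KO_345, which held 4.53 CPM. On day 7 the range was 3.71 to 59.2 CPM (median 6.95) in WT and 2.03 to 95.8 CPM (median 5.25) in KO. Each WT library of day 7 was above those of day 3, and in KO the highest value was 95.8 CPM in d7_KO_420 with the next at 9.86 CPM. The log2 fold change was 6.85 ± 0.78 in WT (adjusted p = 6.07e-05) and 4.46 ± 1.00 in KO (adjusted p = 0.00451). In KO it was 6.09 without d3_KO_345 (adjusted p = 0.000261) and 2.78 without d7_KO_420.

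Il1rl1 encodes ST2, the IL-33 receptor, and was the least abundant of the 8 genes per length. Day 0 libraries held 0.0606, 0.144, 0.145 and 0.283 CPM in WT and 0.127, 0.352, 0.397, 0.481 and 0.686 CPM in KO. Day 3 libraries held 0.0548 to 0.205 CPM in WT, and 0.0999 to 0.257 CPM in KO apart from 2.43 CPM in the library labelled d3_KO_345. By day 7 it had reached 0.893 to 4.47 CPM (median 1.51) in WT and 0.503 to 3.74 CPM (median 1.37) in KO. It rose by 4.2 ± 0.47 in WT (adjusted p = 6.07e-05) and by 1.96 ± 0.64 in KO (adjusted p = 0.0421). The KO rise was larger without d3_KO_345, at 3.27 (adjusted p = 4.51e-05), while leaving out another KO library instead ended the call in 11 of the other 14 cases, with adjusted p up to 0.0784.

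**Figure D2:**
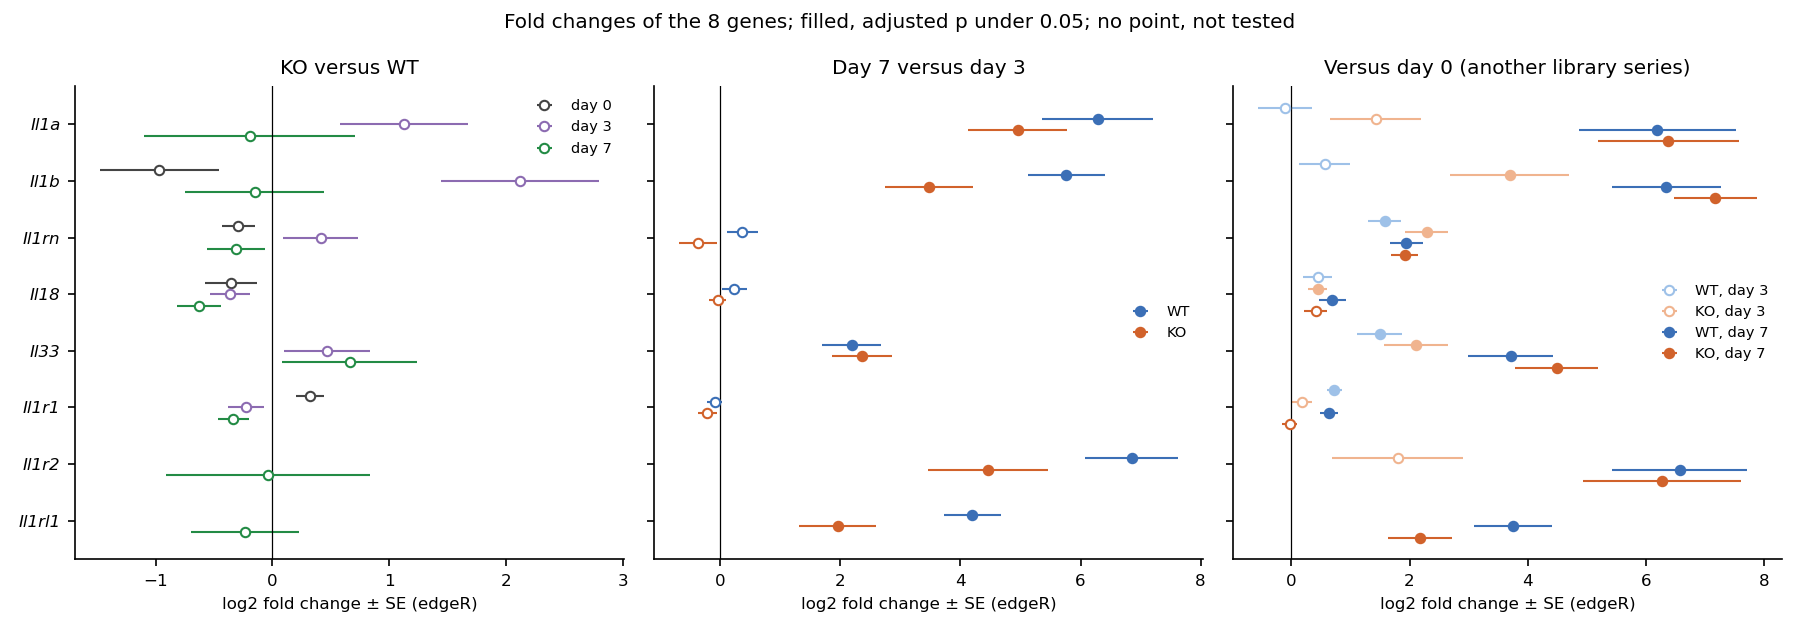
Log2 fold changes with their SE from edgeR for the 8 genes, for KO against WT on each day (left), day 7 against day 3 in each genotype (middle) and days 3 and 7 against day 0 (right, across library series). Filled points passed the adjusted p threshold of 0.05, and genes without a point were too low to be tested. All points of the left panel are open, and 5 genes are filled in both genotypes in the middle panel.

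Groups that did not overlap between day 7 and day 3 were found for 4 of the 8 genes in WT, against 4.6% of all genes tested, and for 0 of 8 in KO, against 5.07%. Without d3_KO_345 the KO count was 5 of 8 (Il1a, Il1b, Il33, Il1r2 and Il1rl1), against 9.02% of all genes tested. The balance of antagonist and agonists was measured within each library as the ratio of length-scaled Il1rn to the sum of length-scaled Il1a and Il1b, a value that does not move with the scaling of a library. The ratio was 3.88 to 14.1 in WT and 5.05 to 20.4 in KO on day 0. On day 3 it was 7.81 to 45.0 (median 12.7) in WT and 2.37 to 13.4 (median 9.06) in KO, the lowest being the library labelled d3_KO_345 and the next 5.90. On day 7 it was 0.167 to 1.47 (median 0.468) in WT and 0.147 to 0.930 (median 0.330) in KO. In each library of days 0 and 3 the antagonist exceeded the agonists per length, and in 5 of 7 WT and 7 of 7 KO libraries of day 7 it was below them. The side of 1 on which a library falls depends on the exon bases counted, 5535 for Il1rn, 1974 for Il1a and 1907 for Il1b. Without length scaling, the day 7 means of Il1rn, Il1b and Il1a were 137, 121 and 25.9 CPM in WT. In KO they were 110, 109 and 22.5 CPM. The mean log2 ratio fell by 4.99 from day 3 to day 7 in WT (exact two-sided permutation test, p = 0.000583, adjusted over 10 ratio tests 0.00194) and by 4.40 in KO (exact p = 0.000311, adjusted 0.00194), each the smallest p these group sizes allow. Neither genotype had a day 7 library that reached the lowest of its day 3 libraries.

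The balance of decoy to signalling receptor, length-scaled Il1r2 over Il1r1, moved the other way. It was 0.0116 to 0.0328 (median 0.0192) in WT on day 3 and 0.0184 to 0.0637 in KO apart from 0.795 in the library labelled d3_KO_345. On day 7 it was 0.480 to 7.94 (median 0.889) in WT and 0.327 to 12.6 (median 0.955) in KO. The 3 libraries with the highest ratios, d7_KO_420, d7_WT_419 and d7_WT_356, also held the highest summed neutrophil markers, 2036, 1089 and 1208 CPM. The mean log2 ratio was higher on day 7 by 6.14 in WT (exact p = 0.000583, adjusted 0.00194) and by 4.54 in KO (exact p = 0.000932, adjusted 0.00233).

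**Figure D3:**
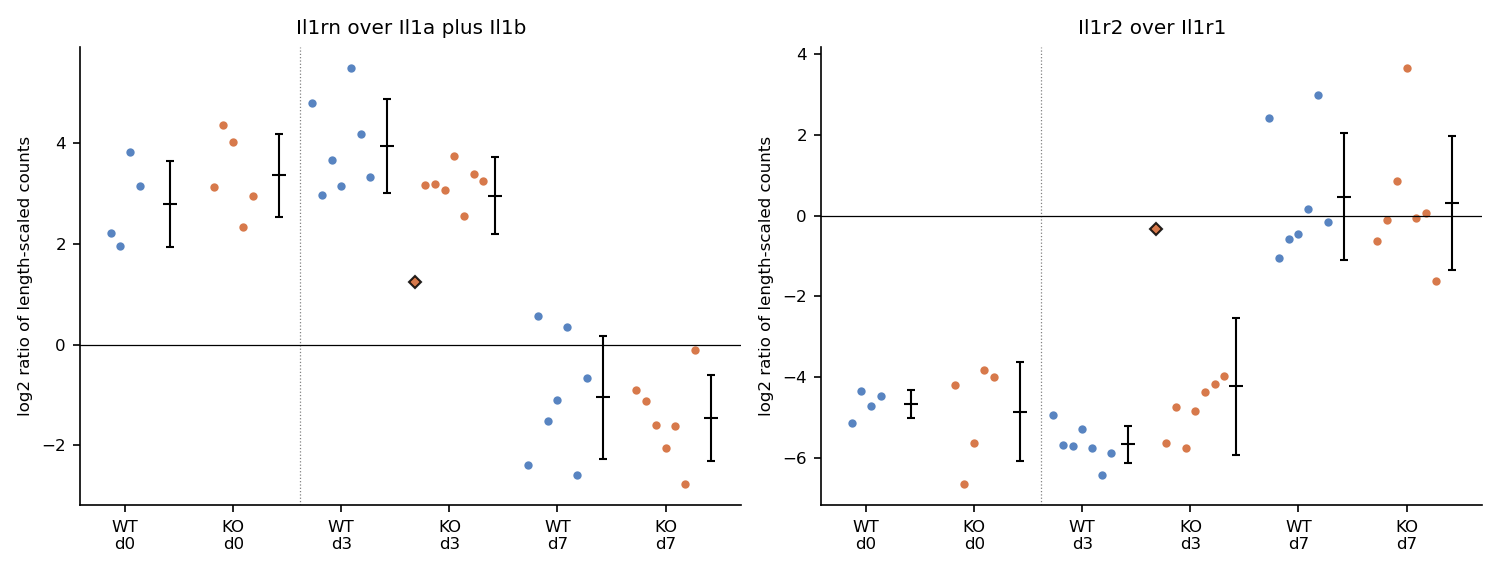
Ratios within each library on a log2 scale, length-scaled Il1rn over Il1a plus Il1b (left) and length-scaled Il1r2 over Il1r1 (right), by genotype and day, with the mean and SD of each group beside the points. The horizontal line marks equal length-scaled levels, which depend on the exon bases counted, and the diamond is the library labelled d3_KO_345. The antagonist ratio lies below the line in 5 of 7 WT and 7 of 7 KO libraries of day 7.

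Expressed as CPM per kilobase of the counted exons, Il18 made up 91.4% ± 1.85 (SD, n = 4) of the 8 genes' summed level in WT on day 0, 85.4% ± 4.90 (n = 7) on day 3 and 64.6% ± 19.9 (n = 7) on day 7. In KO its share was 90.0% ± 2.62 (n = 5), 78.8% ± 8.53 (n = 8) and 56.7% ± 16.3 (n = 7). Il1b went from 0.650% ± 0.423 on day 0 to 0.686% ± 0.402 on day 3 and 18.7% ± 14 on day 7 in WT, and from 0.429% ± 0.307 through 2.54% ± 3.30 to 23.5% ± 11.9 in KO. Without d3_KO_345, where Il1b made up 10.6%, the KO shares on day 3 were 1.39% ± 0.608 (n = 7) for Il1b and 81.5% ± 3.71 for Il18. The share of Il1rn was 5.32% ± 1.31, 10.8% ± 4.73 and 8.16% ± 1.83 in WT. These shares depend on the gene models: the files count Il18 over 714 exon bases from chr9:50575273, downstream of the start that RefSeq annotates.

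Knockout of Hk2 was not accompanied by a called change in any of the 8 genes. On day 0, 4 genes had enough counts for the test and 0 were called, against 0.0335% of 14944 genes. On day 3, 6 were tested and 0 called, against 0.00647% of 15461 genes. On day 7 all 8 were tested and 0 called, against 0.00642% of 15584 genes. At an unadjusted p under 0.05 there were 1 of 4, 2 of 6 and 2 of 8 tested genes on the 3 days. Over all genes tested there were 1563 of 14944 on day 0, 1218 of 15461 on day 3 and 2017 of 15584 on day 7. DESeq2 called 0 of the 8 genes on each day. Few genes of any kind were called by edgeR between the genotypes on any day.

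The lowest adjusted p-values between genotypes were those of Il18 and Il1r1 on day 7. The KO minus WT difference of Il18 on day 7 was -0.63 ± 0.19 (log2 ± SE, edgeR adjusted p = 0.291). The groups overlapped, with 63.0 to 120 CPM in KO and 85.9 to 176 CPM in WT. No KO library lay above the highest WT library, which on day 7 was also so for Il1a and Il1b. The Il18 estimates on the other days were -0.35 ± 0.22 on day 0 (adjusted p = 0.592) and -0.36 ± 0.17 on day 3 (adjusted p = 0.623). The Il1b difference was -0.97 ± 0.51 on day 0 (adjusted p = 0.525) and 2.12 ± 0.68 on day 3 (adjusted p = 0.623), the latter becoming 0.76 without the library labelled d3_KO_345 (adjusted p = 0.77). That of Il1a on day 3 was 1.13 ± 0.55 (adjusted p = 0.623), and 0.32 without that library (adjusted p = 0.851). On day 7 the Il1b estimate was -0.15 ± 0.59 (adjusted p = 0.928) and that of Il1a -0.20 ± 0.90 (adjusted p = 0.941). The Il1r1 estimates were 0.32 ± 0.12 on day 0 (adjusted p = 0.396), -0.23 ± 0.16 on day 3 (adjusted p = 0.671) and -0.33 ± 0.13 on day 7 (adjusted p = 0.34).

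The other genes did not pass the test either. Il33 was estimated at 0.47 ± 0.37 on day 3 (adjusted p = 0.706) and 0.66 ± 0.58 on day 7 (adjusted p = 0.619), and Il1rn at -0.29 ± 0.14, 0.41 ± 0.32 and -0.31 ± 0.25 on the 3 days (adjusted p = 0.497, 0.699 and 0.585). Without d3_KO_345 the day 3 estimates became 0.10 for Il33 and 0.04 for Il1rn. On day 7 Il1r2 and Il1rl1 were estimated at -0.04 ± 0.88 (adjusted p = 0.99) and -0.23 ± 0.46 (adjusted p = 0.846). The day 7 against day 3 change was not called different between the genotypes for any of the 8 genes (interaction term, edgeR, 0 of 8 called, 0% of 16371 genes called, DESeq2 0 of 8). At an unadjusted p under 0.05 there were 2 of 8, beside 440 of 16371 genes tested. The 2 were Il1b at -2.27 ± 0.94 and Il1rl1 at -2.22 ± 0.85 (both adjusted p = 1.00), which became -0.90 and -0.92 without d3_KO_345.

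Both ratios were also compared between genotypes. The Il1r2 to Il1r1 ratio was higher in KO on day 3 by 1.44 on the log2 scale (exact two-sided permutation p = 0.00963, adjusted over 10 ratio tests 0.0193), with 6 of 8 KO libraries above the highest WT library, and by 0.89 without d3_KO_345 (adjusted p = 0.0361). It rests on 2 to 11 Il1r2 counts per WT library and 7 to 16 in the KO libraries other than d3_KO_345. The KO minus WT difference of the Il1rn ratio on day 3 was -0.99 (exact permutation p = 0.0398, adjusted 0.0663), and -0.75 without d3_KO_345 (adjusted p = 0.124). The remaining genotype differences, 0.57 and -0.19 on day 0 and -0.40 and -0.16 on day 7, had exact permutation p of 0.302, 0.81, 0.484 and 0.871.

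Against day 0, where library series and treatment cannot be told apart, much of the transcriptome was called and the shares of the 8 genes have to be read beside it. In WT on day 3, 3 of 6 tested genes were called, all higher, where 46% of 17152 genes were called and 20.4% were higher: Il1rn by 1.58 ± 0.28 (adjusted p = 0.00045), Il33 by 1.5 ± 0.38 (adjusted p = 0.00576) and Il1r1 by 0.73 ± 0.13 (adjusted p = 0.000461). In KO on day 3, 4 of 7 were called, all higher, where 46.3% of 16010 genes were called and 22.6% were higher: Il1b by 3.69 ± 1.01 (adjusted p = 0.00737), Il1rn by 2.29 ± 0.36 (adjusted p = 9.4e-05), Il33 by 2.12 ± 0.54 (adjusted p = 0.00492) and Il18 by 0.45 ± 0.16 (adjusted p = 0.0318). Without d3_KO_345 the KO value of Il1b was 2.30 (adjusted p = 0.00014) and the call of Il18 was lost (adjusted p = 0.0548). By day 7 all 8 were higher in WT, where 56.9% of 17428 genes were called and 27.8% higher, and 6 of 8 in KO, where 54.6% of 16367 were called and 27.3% higher. Il1b reached 6.35 ± 0.92 in WT (adjusted p = 7.77e-05) and 7.18 ± 0.71 in KO (adjusted p = 1.81e-06). The 2 genes not called in KO were Il18 at 0.41 ± 0.19 (adjusted p = 0.0892) and Il1r1 at -0.03 ± 0.12 (adjusted p = 0.867), against 0.69 ± 0.23 (adjusted p = 0.0206) and 0.64 ± 0.15 (adjusted p = 0.00314) in WT. Whether the genotypes differ in these changes was not tested.

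Leukocyte markers moved with the 5 genes that rose. The 10 neutrophil markers summed to 8.06 to 44.6 CPM in WT and 13.5 to 54.9 CPM in 7 KO libraries on day 3, with 152 CPM in the library labelled d3_KO_345, and to 149 to 1208 CPM in WT and 125 to 2036 CPM in KO on day 7. On day 3 nearly all of that sum was Ly6g, with a median of 21.5 CPM in WT, while S100a8 had a median of 0.0762 CPM and S100a9 of 0.110 CPM. On day 7 the WT medians were 51.1 CPM for S100a8 and 69.3 CPM for S100a9. All 8 tested neutrophil markers were called higher on day 7 in each genotype. For comparison with all marker lists here, 10.6% of all genes tested were called higher in WT and 10.5% in KO. In either direction 19.3% were called in each genotype. The 10 monocyte and macrophage markers summed to 44.2 to 53.6 CPM in WT and 42.3 to 60.9 CPM in 7 KO libraries on day 3, 177 CPM in d3_KO_345, and 97.0 to 407 CPM in WT and 99.2 to 576 CPM in KO on day 7, with 9 of 9 tested markers called higher in WT and 9 of 10 in KO. Epithelial markers did not shift in this way, with 0 of 9 called in WT and 1 of 9, lower, in KO. The 10 mast cell markers summed to 45.9 to 84.6 CPM in WT on day 3 and 44.2 to 99.7 CPM on day 7, with Fcer1a at 0 in all WT libraries of day 3. Most of that sum was Kit, with a mean of 69.5 CPM in WT on day 3 and 42.1 CPM on day 7, which fell by 0.74 on the log2 scale in WT (adjusted p = 0.0103) and by 0.61 in KO (adjusted p = 0.037). The mast cell proteases Mcpt1 and Mcpt2 rose in both genotypes, Mcpt1 by 4.53 in WT (adjusted p = 3.92e-05) and 3.24 in KO (adjusted p = 1.08e-05) and Mcpt2 by 5.28 (adjusted p = 2.91e-05) and 3.45 (adjusted p = 5.35e-06). Of 4 tested mast cell markers in WT 2 were called higher and 1 lower, and of 6 in KO 3 were higher, the third being Cpa3, and 1 lower. The part of leukocytes in the rise of the 5 genes was not tested.

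**Figure D4:**
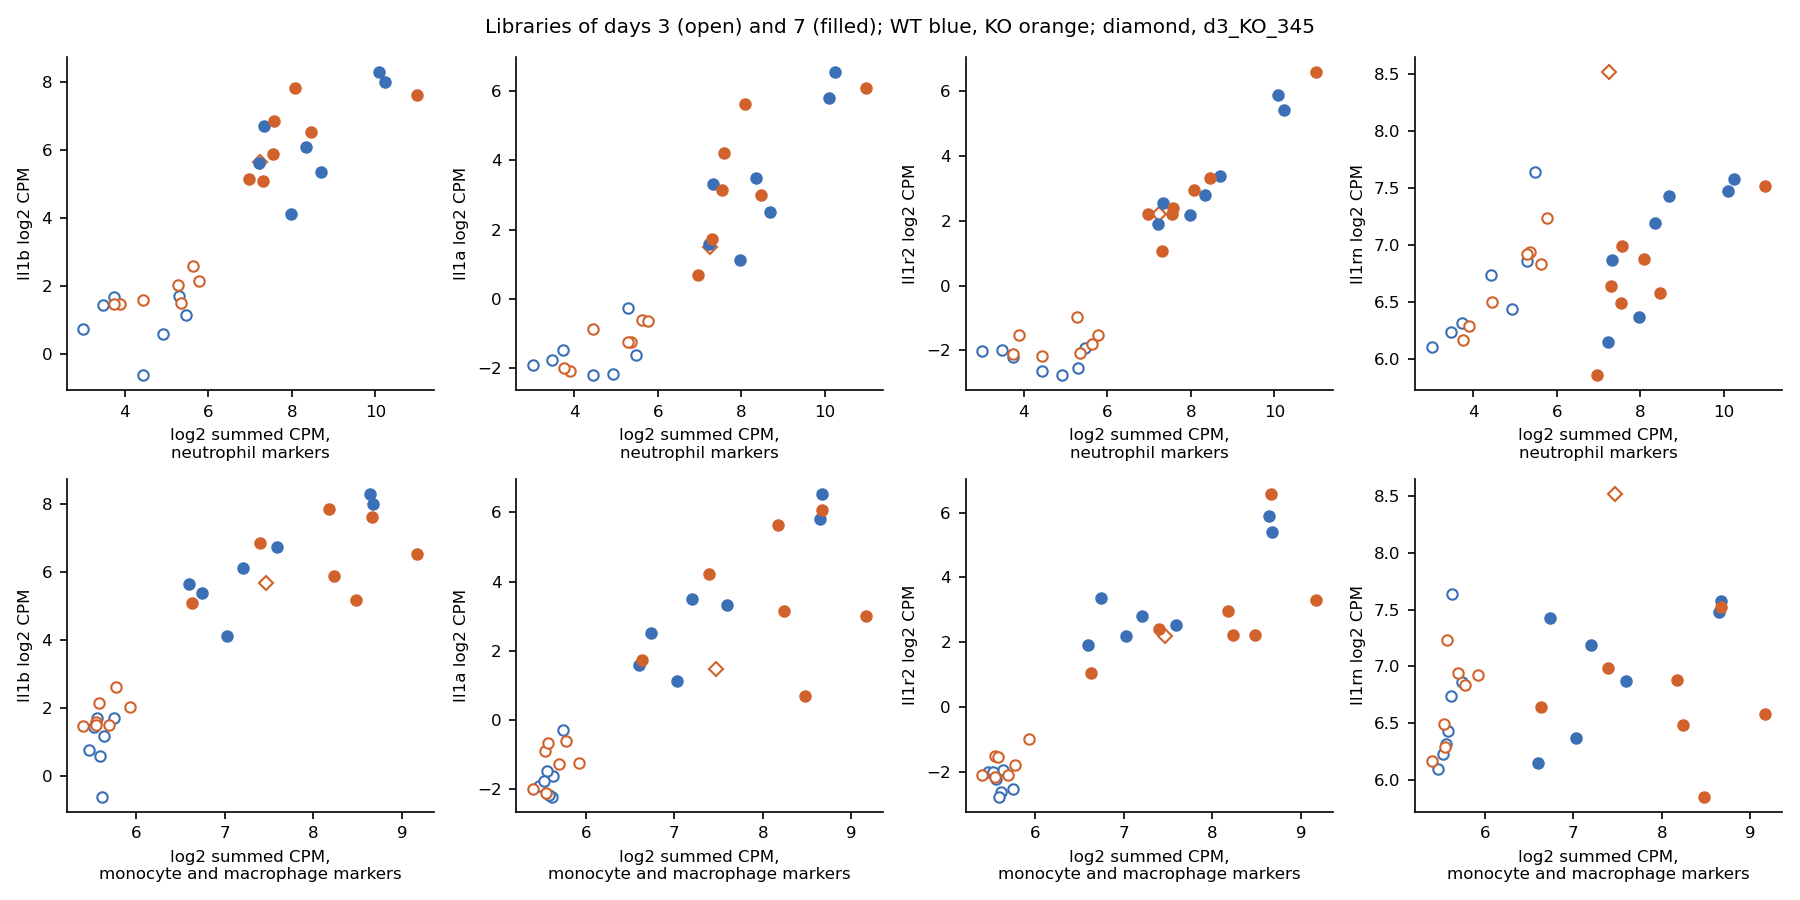
Levels of Il1b, Il1a, Il1r2 and Il1rn (log2 CPM, from left to right) against the log2 summed CPM of neutrophil markers (upper row) and of monocyte and macrophage markers (lower row) in the 29 libraries of days 3 (open) and 7 (filled), WT in blue and KO in orange. The diamond is the library labelled d3_KO_345, which lies among the day 7 libraries for Il1b, Il1a and Il1r2 and above all libraries for Il1rn. Il1rn spans much the same range on both days.

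Within day 7 the libraries differed widely, and the same few were at the top for several genes. The libraries d7_WT_356 and d7_WT_419 held 255 and 312 CPM of Il1b and 93.1 and 56.0 CPM of Il1a, where the other 5 WT libraries held at most 105 and 11.3 CPM. Over the 14 libraries of day 7 the Spearman coefficient with summed neutrophil markers was 0.89 for Il1r2, 0.84 for Il1rn, 0.82 for Il1rl1, 0.72 for Il1a, 0.66 for Il33, 0.61 for Il1b, 0.42 for Il1r1 and 0.27 for Il18. With summed fibroblast markers it was 0.70 for Il33 and between -0.23 and 0.54 for the other 7. These coefficients describe libraries that share depth, scaling and the 2 genotypes, and were not tested. Coefficients with monocyte and macrophage markers are not listed here. The library d7_KO_368, highest for Il33, also held the highest sum of those markers, 576 CPM.

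The genes most like each member across the 29 libraries of days 3 and 7 were picked by Spearman coefficient among 12640 genes (12641 for Il1rl1), the 2 days forming separate clusters for the members that rose. Il1a and Il1b were nearest to each other (0.97, and 0.93 over the 14 libraries of day 7), and for both the next were Irg1, which encodes the enzyme that makes itaconate in activated macrophages, and Clec4e, a C-type lectin receptor of myeloid cells (0.95 to 0.96). Il1r2 was nearest to Gp49a, Trem1 and Pfkfb3 (0.95 to 0.96), of which Trem1 encodes an activating receptor of neutrophils and monocytes. Il1rl1 was nearest to Cd84, Pirb and Ccr1 (0.92 to 0.93), all known from leukocytes. Il1rn was nearest to Apobec1, Gpr137b-ps and Slc2a1 (0.84), Il18 to Pex7, Tmem192 and Tmem222 (0.89 to 0.92), Il33 to Adap2, Atmin and Zdhhc15 (0.87 to 0.88) and Il1r1 to Acss1, Adck3 and Adgrg1 (0.83 to 0.84). Over the 14 libraries of day 7 alone, Il1a and Il1b had 0.82 to 0.93 with Irg1 and Clec4e. With the genes named for each, Il1r2 then had 0.76 to 0.89 and Il1rl1 0.69 to 0.76. Il1rn had 0.75 to 0.84, Il18 0.88 to 0.93, Il33 0.72 to 0.85 and Il1r1 0.66 to 0.85. Slc2a1 encodes the glucose transporter GLUT1 and Acss1 a mitochondrial acetyl-CoA synthetase.

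Among 10 ligands and antagonists in the files, 6 could be tested between day 7 and day 3, and the 1 outside the 8 genes was Il1f9, which encodes IL-36γ, an epithelial and myeloid cytokine. Il1f9 was listed at 0 to 0.0838 CPM in WT on day 3 and reached 0.497 to 14.1 CPM (median 1.69) on day 7. It rose in both genotypes (WT 8.06 ± 1.09, edgeR adjusted p = 0.000157, and KO 3.46 ± 0.89, adjusted p = 0.0115, or 6.38 without d3_KO_345), and in KO the highest day 3 value, 1.58 CPM, was again the library labelled d3_KO_345. Of 9 tested receptors and binding proteins 4 rose and 1 fell in each genotype, the median log2 fold change being 0.74 in WT and 0.36 in KO. Of all genes tested, 10.6% were called higher and 1352 of 15541 lower in WT. In KO 10.5% were called higher and 1375 of 15568 lower. Il18rap, a chain of the IL-18 receptor, rose by 3.99 ± 0.66 in WT (adjusted p = 0.000733) and 2.72 ± 0.54 in KO (adjusted p = 0.00183). Il18bp, the soluble inhibitor of IL-18, rose by 1.48 ± 0.32 (adjusted p = 0.0049) and 1.78 ± 0.37 (adjusted p = 0.00265). Il1rl2, the receptor for IL-36, was the 1 that fell, by -1.38 ± 0.39 in WT (adjusted p = 0.0207) and -1.89 ± 0.30 in KO (adjusted p = 0.000359). It ranged from 1.21 to 5.33 CPM in WT on day 3 and from 0.376 to 2.63 CPM on day 7, with overlap. The accessory protein Il1rap and the inhibitory receptor Sigirr did not pass the test, at 0.19 ± 0.22 and 0.12 ± 0.09 in WT and 0.11 ± 0.19 and 0.06 ± 0.07 in KO (adjusted p = 0.603, 0.379, 0.74 and 0.579).

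Signalling components moved little in size. Of 17 tested genes between receptor and NF-κB 6 were called higher in WT and 5 in KO, against 10.6% and 10.5% of all genes tested, and 0 lower, with a median log2 fold change of 0.18 and 0.08. Without d3_KO_345 the KO count was 5 higher and 1 lower, the latter being Peli1, a ubiquitin ligase, at -0.28 (adjusted p = 0.0294). The largest in WT was Traf6, a ubiquitin ligase, at 0.51 ± 0.13 (adjusted p = 0.0143), followed by Myd88, the adaptor of the receptor, at 0.35 ± 0.08 (adjusted p = 0.00435), and Ikbkb, an IκB kinase, at 0.33 ± 0.08 (adjusted p = 0.0121). In KO Myd88 stood at 0.40 ± 0.07 (adjusted p = 0.00117) and Ikbkb at 0.34 ± 0.06 (adjusted p = 0.000955), with Irak4, a receptor-associated kinase, at 0.36 ± 0.12 (adjusted p = 0.0426). Among 18 tested genes of cytokine processing and release 6 rose in WT and 5 in KO (10.6% and 10.5% of all genes tested), 8 in KO without d3_KO_345, and 0 fell. For both lists the KO share of all genes tested is that of the fit with d3_KO_345. Nlrp3, the sensor of an inflammasome, rose by 5.24 ± 0.70 in WT (adjusted p = 0.000137) and 3.03 ± 0.80 in KO (adjusted p = 0.0135). Mefv, which encodes pyrin, rose by 4.94 ± 0.63 (adjusted p = 0.000115) and 2.81 ± 0.76 (adjusted p = 0.0154), and Gsdmd, the pore-forming gasdermin D, by 0.78 ± 0.14 (adjusted p = 0.0016) and 0.54 ± 0.14 (adjusted p = 0.0126). Casp1, which cuts IL-1β and IL-18, did not pass the test at 0.17 ± 0.16 in WT and 0.21 ± 0.07 in KO (adjusted p = 0.502 and 0.0575).

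Of 12 tested genes known to respond to IL-1, 11 were called higher in WT, where 10.6% of all genes tested were, and 6 in KO, where 10.5% were, or 8 in KO without d3_KO_345, with median log2 fold changes of 1.76 and 1.27. The 10.5% comes from the fit with d3_KO_345, and no share of all genes called is given for the fit without it. Cxcl2, a neutrophil chemokine, rose by 6.14 ± 0.68 in WT (adjusted p = 5.9e-05) and 3.71 ± 1.00 in KO (adjusted p = 0.0144). Ptgs2, which encodes cyclooxygenase-2, rose by 6.10 ± 0.79 (adjusted p = 0.000125) and 4.12 ± 0.87 (adjusted p = 0.00303), and Saa3, an acute-phase protein, by 4.65 ± 0.81 (adjusted p = 0.00101) and 5.26 ± 0.68 (adjusted p = 7.71e-05). The interaction term was called for 0 genes of these lists, and for 0 of all 16371 genes tested. Between KO and WT 0 genes of the 5 lists were called on any day. Of all genes tested, 5 of 14944 were called on day 0, 1 of 15461 on day 3 and 1 of 15584 on day 7. With so few calls of any kind, a count of 0 is not particular to these lists.

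**Figure D5:**
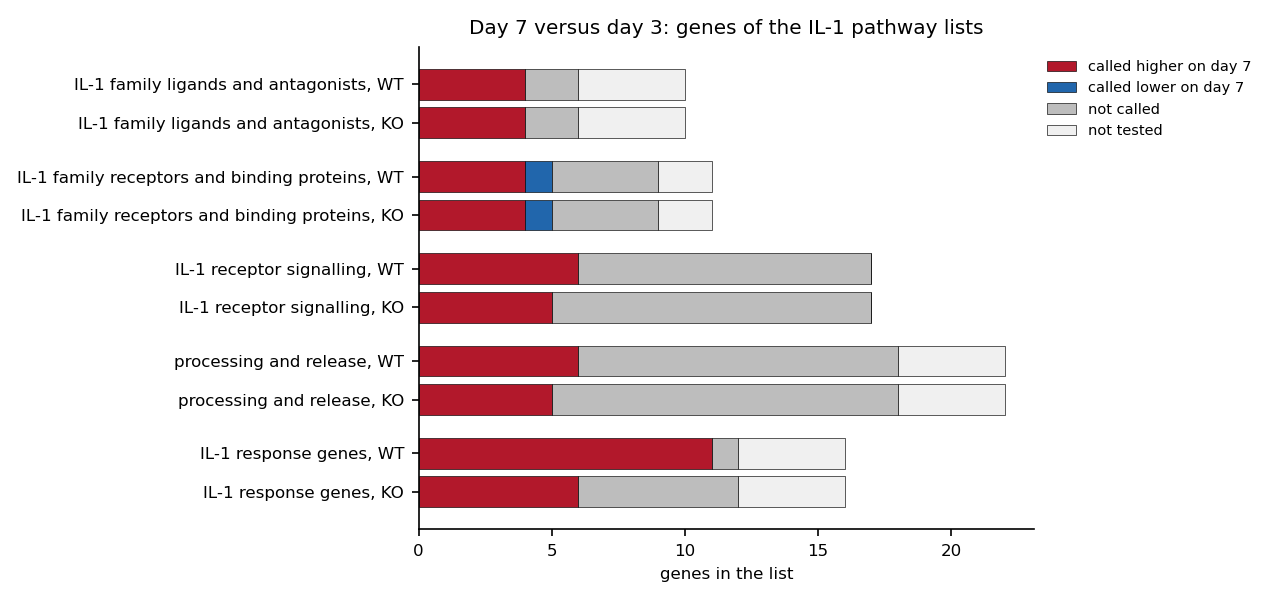
Number of genes of each IL-1 pathway list called higher (red), called lower (blue), not called (grey) or not tested (pale grey) on day 7 against day 3, for WT and KO. Response genes had 11 of 12 tested genes called higher in WT and 6 of 12 in KO, and 1 receptor was called lower in each genotype.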

How the data were processed

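RNA was sequenced from isolated intestinal epithelial cells, with a stranded mRNA kit per the labels' protocols. The authors deposited whole-number counts per gene and lane; per the file headers these counts were made with featureCounts 1.6.2 in paired-end mode with strand ignored. The submitters' processing notes list Trim Galore, STAR, featureCounts 1.5.2 and GRCm38. The 2 lanes of each library were summed, and groups were taken from the labels. The 8 genes, the gene lists and the tests were chosen with earlier results of these data known.

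Counts were tested with edgeR 4.0.16 in R 4.3.3 (TMM scaling, filterByExpr, quasi-likelihood test, only the groups compared), with Benjamini-Hochberg adjustment over all genes tested. Levels are TMM-scaled CPM, with a prior count of 2 on the log2 scale. Ratios used counts per exon length with 0.5 counts added and exact two-sided permutation tests adjusted over 10 tests. On simulated counts, 200 genes with a mean CPM above 1 were changed by 2 log2 units. The test recovered 98% of them for KO versus WT on day 7 (15584 genes) and 96% for day 7 versus day 3 in WT (15541 genes). Counts were drawn independently for each gene and library, so these shares do not give the power for the 8 genes. In the data the day 7 KO minus WT SE was 0.90 for Il1a and 0.88 for Il1r2, and Hk2 at -1.25 was not called. The genes named are the 8 members in each comparison, of each pathway list up to 3 genes per direction with the largest called change, any ligand or receptor, the 3 genes most like each member (mean log2 CPM of at least 0) and Hk2; Casp1 was added for its role in processing. Alternatives were DESeq2 1.42.0, its size factors, other filters on low counts, robust dispersions, all 38 libraries in 1 fit, 1 lane alone and leaving out libraries.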

Additional observations from a re-analysis of the deposited data

Results flagged for a closer look

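In 10 of 60 sets of libraries examined (genes and ratios by group), the highest or lowest library lay apart from the rest by a gap that chance gives in about 1 in 20 sets, or about 3 of 60. The library labelled d3_KO_345 accounts for 7 of the 10. On the log2 CPM scale it was the highest KO library of day 3 for Il1a (1.48, nearest -0.61), Il1b (5.67, nearest 2.61), Il1rn (8.52, nearest 7.24), Il1r2 (2.20, nearest -0.97) and Il1rl1 (1.31, nearest -1.69). It had the lowest log2 ratio of Il1rn to Il1a plus Il1b, 1.24 with the nearest at 2.56, and the highest log2 ratio of Il1r2 to Il1r1, -0.33 with the nearest at -3.97. The same library also held the highest summed neutrophil markers of its group, 152 CPM with the next at 54.9 CPM, and the highest Hk2. The part of these in its values was not tested.

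Of the other 3, d3_WT_487 was the highest of its group for Il1a (-0.28, nearest -1.48), d7_WT_386 the lowest for Il1r1 (4.11, nearest 4.64) and d7_KO_420 the highest for Il1r2 (6.58, nearest 3.31). The library d7_KO_420 also had the highest summed neutrophil markers of day 7, 2036 CPM.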

How the results depend on the processing

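The number of the 8 genes called stayed within 1.5 times its value under each alternative run. Of 1103 alternative values for single genes, 1058 kept their direction and side of the threshold, 20 lost the call, 3 gained it and 22 changed sign. The cause was not tested in any case. The KO minus WT difference of the Il1rn to Il1a plus Il1b ratio on day 3 was -0.94 with lane 1 alone (adjusted p = 0.0285) and -1.15 to -0.73 when 1 library was left out. That of the Il1r2 to Il1r1 ratio on day 0 was 0.27 with 5 counts added, 0.38 with lane 1 alone and -0.45 to 0.26 when 1 library was left out, and on day 7 it ranged from -0.72 to 0.26. Without a filter on low counts the Il1r1 change from day 0 to day 7 in KO was 0.0893, and leaving out libraries gave -0.0697 to 0.0494. Leaving out 1 library moved the day 7 KO minus WT values from -0.78 to 0.60 for Il1a, -0.45 to 0.28 for Il1b, -1.73 to 0.58 for Il1r2 and -0.48 to 0.0238 for Il1rl1, and the change from day 3 to day 7 in KO from -0.14 to 0.0176 for Il18 and -0.31 to 0.40 for Hk2. For Hk2 in WT between days 0 and 7 the range was -0.20 to 0.0476. Genes of any kind called between genotypes numbered 5 on day 0 (177 by DESeq2, 52 unfiltered), 1 on day 3 (2 by DESeq2, 0 at a mean CPM of at least 1) and 1 on day 7 (83 by DESeq2, 2 unfiltered, 0 at a mean CPM of at least 1, 38 with all libraries in 1 fit). The list counts under each setting were added after seeing the data: processing genes rose from 6 to 10 in WT with all libraries in 1 fit and from 5 to 10 (DESeq2) or 11 (all libraries) in KO, and response genes in KO from 6 to 11 (all libraries). The share of all genes called under these settings is not given. These list counts therefore cannot be told apart from a general rise in calls. No paired analysis was possible because the groups share no replicate numbers. Depth limited Il1r2 and Il1rl1 before day 7, where libraries held few counts.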
